A study of Mus musculus with 10 samples.

Results

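The collagen genes of peeled mouse gingival epithelium were taken as every gene of the deposited count table whose symbol is Col, a number, a and a number. Col17a1, the transmembrane collagen of hemidesmosomes, was left out, and rows without counts were not used. This gave 43 genes of the 49164 with counts in the table, and 21 of the 43 passed the filter on low counts and were tested. They were sorted by the known structure of their proteins into 11 fibrillar, 9 basement membrane, 3 short-chain, 9 FACIT and 11 other collagens. FACIT stands for collagens whose helix is interrupted and which associate with fibrils.

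Gingival epithelium was loosened with the protease Dispase and peeled with forceps from 2 sites of mice, the buccal side that faces the cheek and the palatal side that faces the roof of the mouth. Each side gave 5 libraries of polyadenylated RNA, and the side is the sole factor that the labels assign. The labels give no strain, age or sex for either side and no treatment or genotype, and they do not name the microbial status of the mice, although the series' design text speaks of pooled germ-free and specific-pathogen-free animals. Whether the 5 libraries of a side are separate animals is not said either, so the p-values speak for the variation among these 10 samples, part or all of which may be technical. Total counts were 25868777 to 37234192 per library, and no 2 libraries of one side agreed within sampling noise (chi-square per degree of freedom 8.32 to 64.7). The keratinocyte markers Krt5, Trp63 and Cdh1 were abundant on both sides (4500, 377 and 573 CPM in buccal and 4302, 414 and 586 CPM in palatal libraries, means, n = 5 per side). CPM is the count divided by the library size in units of 1e6 after TMM scaling, a correction for differences in library composition.

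Collagens are built from chains that wind around each other into a helix, and the chain genes used decide which network forms. Fibrillar collagens are made mainly by fibroblasts of the connective tissue and form its cables, while type IV collagen forms the mesh of basement membranes. Keratinocytes are known to make type VII collagen, whose anchoring fibrils tie the epithelial basement membrane to the tissue beneath. Type VI collagen forms beaded filaments near basement membranes, and FACIT members decorate or link fibrils.

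Palatal epithelium carried 1.96 times as much transcript of the 43 collagen genes as buccal epithelium. Col17a1, which was left out, alone averaged 1008 CPM in buccal and 1332 CPM in palatal libraries, more than these 43 together. Summed over the 43 genes, the level was 246, 190, 200.4, 187 and 218 CPM in buccal libraries 1 to 5 and 446, 414, 465, 350.3 and 369 CPM in palatal libraries 1 to 5, with no overlap. The sums were 208 ± 24.5 and 409 ± 48.9 CPM (SD, n = 5 per side), or 0.0184% to 0.0261% of all counts in buccal and 0.0340% to 0.0463% in palatal libraries. Col7a1, Col18a1 and Col8a1 together made up 61.3% of this sum in buccal and 73.8% in palatal libraries, so the sum mostly follows these 3 genes. Fewer cells of a type and less RNA per cell cannot be told apart in such bulk samples.

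Of the 21 tested collagen genes 10 were higher and 3 lower in palatal epithelium at a false discovery rate of 0.05 (edgeR quasi-likelihood F-test, Benjamini-Hochberg adjustment over all 14062 tested genes). That is 61.9% of those tested, against 38.9% of all tested genes, with 47.6% higher against 18.7% and 14.3% lower against 20.3%. The sides did not overlap for 11 of the 21 (52.4%), and for 28.3% of all tested genes. The median log2 fold change, palatal minus buccal, was 0.22 over the 21 collagens and 0.01 over all tested genes. By class, 4 of 6 tested basement membrane genes, the 1 tested short-chain gene, 3 of 4 other genes, 1 of 6 fibrillar genes and 1 of 4 FACIT genes were higher. Lower genes were 2 FACIT members and 1 member of the other group, and a gene could be tested only if its counts were high enough on at least one side.

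**Figure D1:**
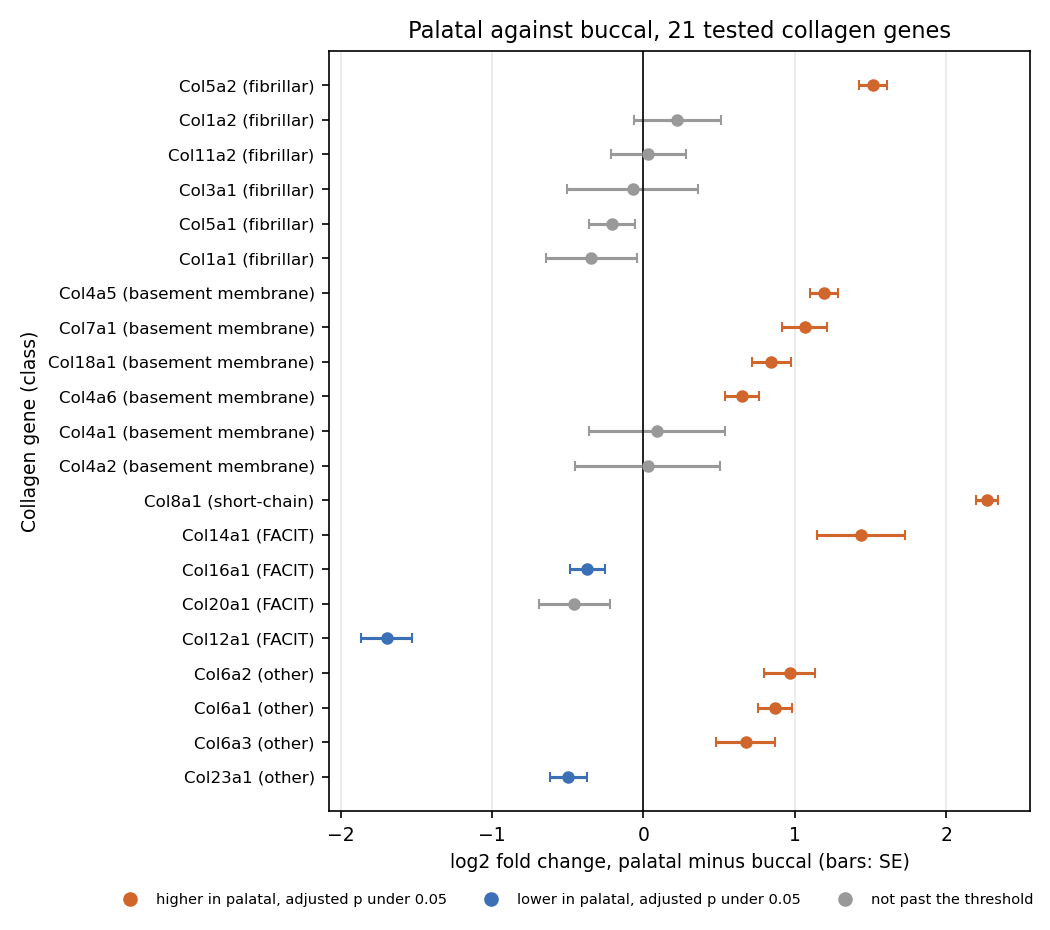
Log2 fold change (palatal minus buccal, horizontal axis) of the 21 tested collagen genes, grouped by class on the vertical axis, with bars for the standard error. Col8a1 at 2.27 lies farthest right and Col12a1 at -1.69 farthest left, while 5 of the 6 fibrillar genes are not past the threshold.

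Col8a1 (ENSMUSG00000068196) encodes a short-chain collagen known from the membrane under corneal endothelium and from vessel walls, where type VIII collagen forms lattices. Its level was 16.2, 18.9, 18, 15.1 and 18.5 CPM in buccal libraries 1 to 5 and 82.1, 79.3, 85.7, 85.3 and 86.1 CPM in palatal libraries 1 to 5. All palatal libraries lay far above all buccal ones, and the libraries within each side lay close together. The means were 17.4 ± 1.62 and 83.7 ± 2.91 CPM (SD, n = 5 per side), a 4.82-fold higher level with a log2 fold change of 2.27 ± 0.07 (SE; edgeR adjusted p = 1.30e-11). Col8a1 supplied 8.42% of the summed CPM of the 43 genes in buccal and 20.7% in palatal libraries. Its partner Col8a2 had 6 counts over all buccal and 15 over all palatal libraries, and Col10a1, the short-chain collagen of growth plate cartilage, had 1 and 0. The count of 0 allows up to 0.0200 CPM over the palatal libraries, by a floor of 3 counts that covers counting error only.

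The 250 bases before the RefSeq start site of Col8a1 are shown because this gene had the largest log2 fold change among the 21 tested collagens. RefSeq places this window at chr16:57754738-57754987 on the minus strand of GRCm38.p6, a build other than the GRCm39 of the deposited counts. The sequence is written 5′ to 3′ on the gene's own strand, and capitals mark the GC box, GGGCGG or its reverse complement CCGCCC, and the CCAAT box, CCAAT or ATTGG.
Col8a1: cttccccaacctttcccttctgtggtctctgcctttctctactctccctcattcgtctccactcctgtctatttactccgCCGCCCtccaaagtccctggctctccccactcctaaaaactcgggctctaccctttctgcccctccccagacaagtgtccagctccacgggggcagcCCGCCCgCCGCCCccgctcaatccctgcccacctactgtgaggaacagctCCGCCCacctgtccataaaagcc
It held 4 GC boxes and no CCAAT box. The TATA box letters TATAAA, searched on both strands, were not in this window.

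Basement membrane collagens were the most abundant class by CPM. Of the 6 tested genes of this class 4 rose on the palatal side (66.7%, against 18.7% of all tested genes). The class summed to 134 ± 20.8 CPM in buccal and 261 ± 45.7 CPM in palatal libraries (SD, n = 5 per side), 1.95 times as much, with ranges of 118 to 167 and 209 to 311 CPM that did not overlap. Type IV chains alone summed to 22.7 ± 3.56 and 42.9 ± 4.39 CPM (SD, n = 5 per side). Col7a1 averaged 65.6 and 137 CPM and Col18a1 45.2 and 81.1 CPM, so the class sum mostly follows these 2 genes.

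Col7a1 (ENSMUSG00000025650), the chain of anchoring fibrils, was measured at 85.7, 55.4, 59.9, 57.3 and 69.5 CPM in the buccal and 156, 137, 172, 108 and 113 CPM in the palatal libraries. Every palatal value exceeded every buccal value, with buccal library 1 above its 4 companions, and palatal libraries 4 and 5 were the lowest of theirs. The log2 fold change was 1.07 ± 0.15 (SE; edgeR adjusted p = 8.08e-05). Col18a1 (ENSMUSG00000001435) encodes a basement membrane collagen that is also a heparan sulfate proteoglycan and the source of the fragment endostatin. Buccal libraries 1 to 5 held 58.1, 42.0, 42.9, 41.2 and 41.7 CPM of Col18a1, and palatal libraries 1 to 5 held 96.0, 85.9, 93.4, 63.9 and 66.4 CPM. The sides did not overlap, with the same buccal library highest and the same palatal libraries lowest as for Col7a1. The log2 fold change of Col18a1 was 0.85 ± 0.13 (SE; edgeR adjusted p = 1.63e-04).

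Some markers of keratinocytes varied alongside these genes and others did not. The summed level of the 7 keratinocyte markers ranged from 11815 to 14791 CPM in buccal libraries, with library 1 highest, and from 15878 to 19861 CPM in palatal libraries, with libraries 1 and 3 highest. None of the 7 was at 0 in any library. Krt14, a keratin of basal cells, averaged 5109 CPM in buccal and 9906 CPM in palatal libraries, and its partner keratin Krt5 averaged 4500 and 4302 CPM. By library Krt14 had 6560, 4983, 4350, 4551 and 5101 CPM in buccal libraries 1 to 5. In palatal libraries 1 to 5 it had 11644, 10087, 11320, 8281 and 8195 CPM. As for Col7a1 and Col18a1, buccal library 1 was the highest and palatal libraries 4 and 5 were the lowest of their side. Krt14 and Krt5 made up most of the sum. Krt15 was lowest of its side in buccal library 1 (117 CPM) and highest of its side in palatal library 4 (601 CPM). Trp63, Dsg3 and Cdh1 were highest of the palatal side in library 5, at 474, 807 and 604.5 CPM. Of the 7 markers 3 were higher (Krt14, Krt15 and Col17a1) and Dsg3 was lower in the edgeR test, or 57.1% called against 38.9% of all tested genes. The part of these markers in the collagen differences was not tested.

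Col4a5 (ENSMUSG00000031274) and Col4a6 (ENSMUSG00000031273) encode type IV chains that assemble together in epithelial basement membranes. Col4a5 stood at 11.2, 9.85, 11, 10.4 and 13.2 CPM in the buccal and at 25.9, 29.8, 25.4, 23.1 and 23.1 CPM in the palatal libraries. For Col4a6 the buccal values were 11.2, 8.54, 9.89, 9.16 and 11.5 CPM and the palatal values 17.8, 16.4, 17.8, 13.0 and 13.9 CPM. Neither gene's sides overlapped, and palatal libraries 4 and 5 were the lowest of their side for both. Col4a5 rose by 1.19 ± 0.09 log2 units and Col4a6 by 0.65 ± 0.11 (SE; edgeR adjusted p = 1.73e-07 and 2.97e-04).

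The windows before the start sites of this pair are shown because the genes lie head to head and rose together but by unequal amounts. Their RefSeq starts are 1342 bases apart on the X chromosome of GRCm38.p6. The window of Col4a5 is chrX:141475169-141475418 on the plus strand and that of Col4a6 is chrX:141474077-141474326 on the minus strand. Each is written 5′ to 3′ on its own gene's strand, with GC and CCAAT boxes in capitals as above.
Col4a5: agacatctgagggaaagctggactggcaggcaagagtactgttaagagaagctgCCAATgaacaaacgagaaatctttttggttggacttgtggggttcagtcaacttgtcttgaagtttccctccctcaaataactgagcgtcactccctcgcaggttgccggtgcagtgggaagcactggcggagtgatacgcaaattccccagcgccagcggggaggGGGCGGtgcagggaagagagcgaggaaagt
Col4a6: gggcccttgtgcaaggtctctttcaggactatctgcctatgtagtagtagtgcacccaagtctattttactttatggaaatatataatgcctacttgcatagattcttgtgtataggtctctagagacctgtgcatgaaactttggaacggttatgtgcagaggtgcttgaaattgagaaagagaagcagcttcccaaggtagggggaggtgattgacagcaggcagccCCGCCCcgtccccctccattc
Col4a5 held 1 GC box and 1 CCAAT box, and Col4a6 held 1 GC box. RefSeq windows were at hand for 34 of the 43 collagen genes (37 windows). A GC box was present in 59.5% of these windows against 32.7% of 32851 mouse promoter windows of the same 250 bases. A CCAAT box was present in 32.4% against 33.8%, and TATAAA in 10.8% against 12.4%. Such matches describe the letters and are not evidence of a bound factor.

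Col4a1 and Col4a2, the partner chains of nearly all basement membranes, were scarce. Col4a1 counted 0.386, 0.723, 0.419, 0.553 and 2.37 CPM in the buccal and 0.894, 1.02, 0.959, 0.717 and 1.26 CPM in the palatal libraries. Buccal library 5 was far above the other 4 of its side. Col4a2 had 1.57 CPM in buccal library 5 against 0.173 to 0.690 CPM in the other buccal libraries and 0.479 to 0.875 CPM on the palatal side. Over all libraries neither gene passed the test (log2 fold changes 0.09 ± 0.45 and 0.03 ± 0.48, SE; edgeR adjusted p = 0.899 and 0.971). Without buccal library 5 the log2 fold change was 0.90 for Col4a1 and 0.79 for Col4a2, and Col4a1 passed (edgeR adjusted p = 0.0116 and 0.0927). Col15a1, a basement membrane collagen of vessels and muscle, had 41 counts in buccal library 5 and 5 to 12 in the other buccal libraries. Col13a1, a transmembrane collagen known from neuromuscular junctions, had 14 counts there and 1 in the rest of its side. Skeletal muscle markers summed to 12.4 CPM in buccal library 5, to 2.90 to 6.05 CPM in the other buccal libraries and to 2.67 to 6.45 CPM in palatal libraries. Of these 6 markers 5 were tested, and Acta1 and Tnnt3 were lower in palatal samples in the edgeR test (40% of those tested, against 20.3% of all tested genes). Mylpf and Myh1 averaged 2.07 and 1.26 CPM in buccal and 1.83 and 1.17 CPM in palatal libraries. They did not pass (edgeR adjusted p = 0.529 and 0.799), and neither did Ckm. Endothelial markers summed to 6.23 CPM in that library, against 4.86 to 8.57 CPM over its side and 3.41 to 8.40 CPM over the palatal side, but single vessel markers differed. Cdh5 was at 0.692 CPM in buccal library 5 against 0 to 0.290 CPM in the other buccal libraries, Vwf at 1.65 against 1.16 to 1.45, and Emcn at 0.186 against 0 to 0.0985. The pericyte and muscle genes Rgs5 and Des were also highest there, at 0.745 against 0.322 to 0.591 and 1.12 against 0 to 0.380 CPM. Notch3 of the same list was highest there too, at 215 against 165 to 196 CPM. Pecam1, which makes up most of the endothelial sum, was lowest there, at 3.06 against 3.09 to 5.75 CPM. Egfl7 was also lowest there, at 0.0532 against 0.173 to 0.263 CPM. Kdr, Tek and Cldn5 of the endothelial list were not highest in that library. Neither were Acta2, Cspg4, Myh11 and Cnn1 of the pericyte and smooth muscle list. These genes were singled out after their values were seen. The part of other cell types in these counts was not tested. Col4a3 and Col4a4, chains of the kidney filter, had 2 and 4 counts over the buccal and 9 and 6 over the palatal libraries.

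**Figure D2:**
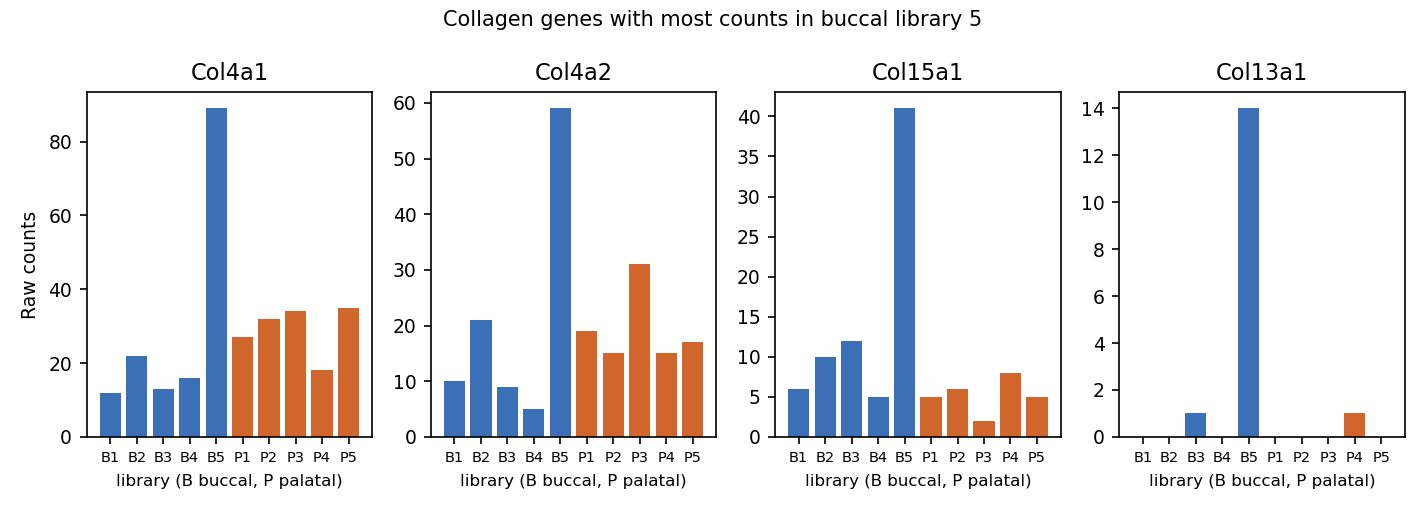
Raw counts (vertical axes) of Col4a1, Col4a2, Col15a1 and Col13a1 in each of the 10 libraries (horizontal axes). Buccal library 5 holds the tallest bar in each panel, with 89, 59, 41 and 14 counts. The genes were picked for this after their values were seen, and buccal library 5 also had the highest total count (37234192).

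None of the 3 classical connective tissue collagens passed the test, against 38.9% of all tested genes, and 3 genes are too few to compare with that share. Col1a1, Col1a2 and Col3a1, the main chains of fibroblast-made fibrils, together summed to 4.13 CPM (2.64 to 5.32) in buccal and 3.87 CPM (1.49 to 6.42) in palatal libraries. Col1a1 averaged 1.87 ± 0.509 and 1.48 ± 0.730 CPM, Col1a2 0.943 ± 0.214 and 1.12 ± 0.498 CPM, and Col3a1 1.31 ± 0.453 and 1.27 ± 0.826 CPM (SD, n = 5 per side). Palatal libraries spread widely, with Col3a1 at 0.331, 1.31, 0.564, 1.91 and 2.24 CPM. Their log2 fold changes were -0.34 ± 0.30, 0.22 ± 0.29 and -0.07 ± 0.43 (SE; edgeR adjusted p = 0.405, 0.578 and 0.914). A difference of the size of these standard errors, and also a larger one, could have gone undetected here.

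Col5a2 (ENSMUSG00000026042), a type V chain that helps set the width of fibrils, was the one fibrillar gene past the test. That is 16.7% of the 6 tested, against 38.9% of all tested genes. Col5a2 measured 5.18, 5.42, 4.96, 4.94 and 4.82 CPM in the buccal and 15.9, 14.5, 16.1, 12.5 and 13.4 CPM in the palatal libraries. The sides lay wide apart, with a log2 fold change of 1.52 ± 0.09 (SE; edgeR adjusted p = 9.01e-09). Col5a1, the other main type V chain, did not pass, with 2.43 to 4.37 CPM in buccal and 2.67 to 3.73 CPM in palatal libraries (log2 fold change -0.21 ± 0.15, SE; edgeR adjusted p = 0.31). Col11a2, a cartilage fibril chain, ranged from 0.328 to 0.772 CPM in buccal and 0.438 to 0.762 CPM in palatal libraries and did not pass (edgeR adjusted p = 0.935). The remaining fibrillar genes Col2a1, Col5a3, Col11a1, Col24a1 and Col27a1 had 4 to 19 counts over the buccal and 2 to 18 over the palatal libraries. With Col5a2 included the summed fibrillar level was 13.7 ± 0.733 CPM in buccal and 22.4 ± 1.04 CPM in palatal libraries (SD, n = 5 per side), while the median log2 fold change of its 6 tested genes was -0.02.

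Of 13 fibroblast markers, 7 were tested, of which 4 were higher (Dcn, Thy1, Fbn1 and Prrx1) and 2 lower (Fbln1 and Vim) in palatal samples (57.1% and 28.6%, against 18.7% and 20.3% of all tested genes). Their summed level was 83.3 to 113 CPM in buccal and 129 to 144 CPM in palatal libraries, with means of 94.5 and 135 CPM. Fbn1 passed the filter on low counts only through its palatal counts. Dcn, the fibril-binding proteoglycan decorin, averaged 6.61 and 73.3 CPM, Fbln1 35.6 and 25.5 CPM, and Vim 32.7 and 8.50 CPM. The mean sum thus rose by less than Dcn alone, and the markers other than Dcn summed to less on the palatal side. The 6 untested markers Pdgfra, Pdgfrb, Lum, Dpt, Twist2 and Mfap5 were low, with means of 0.225 and 0.175 CPM for Pdgfra and 0.167 and 0.179 CPM for Dpt and lower means for the other 4, and 0 to 5 of the 13 were at 0 in a library. The part of fibroblasts in the level of Col5a2 and of the type VI chains was not tested.

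Type VI collagen, whose chains Col6a1, Col6a2 and Col6a3 assemble together, was higher on the palatal side for each of them. Col6a1 (ENSMUSG00000001119) measured 8.59, 7.45, 7.25, 7.08 and 7.08 CPM in the buccal and 15.4, 14.4, 15.8, 10.3 and 12.4 CPM in the palatal libraries. The sides did not overlap (log2 fold change 0.87 ± 0.11, SE; edgeR adjusted p = 2.89e-05). Col6a2 (ENSMUSG00000020241) measured 3.70, 2.92, 2.35, 2.18 and 3.46 CPM and 7.12, 4.72, 6.40, 4.50 and 5.88 CPM. Again every palatal value was above every buccal one (log2 fold change 0.97 ± 0.17, SE; edgeR adjusted p = 3.33e-04). Col6a3 (ENSMUSG00000048126) was lower in level, at 0.772, 0.657, 0.773, 0.829 and 1.01 CPM against 1.23, 1.34, 0.987, 1.23 and 1.73 CPM. Its highest buccal library exceeded its lowest palatal library, and it passed with a log2 fold change of 0.67 ± 0.19 (SE; edgeR adjusted p = 0.0122). The chains Col6a4, Col6a5 and Col6a6 had 20, 4 and 13 counts over the buccal and 3, 3 and 8 over the palatal libraries.

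Col23a1 (ENSMUSG00000063564), a transmembrane collagen known from epidermis, moved the other way. Its buccal values were 6.95, 5.19, 4.48, 5.39 and 5.78 CPM and its palatal values 3.51, 4.28, 4.20, 3.59 and 4.08 CPM, without overlap. It fell by 0.50 ± 0.12 on the log2 scale (SE; edgeR adjusted p = 0.00468). In the same group the untested Col25a1, Col26a1 and Col28a1 had 5, 19 and 7 counts over the buccal and 9, 10 and 2 over the palatal libraries.

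Among the FACIT genes Col12a1 and Col16a1 fell and Col14a1 rose. The class summed to 26 ± 2.92 CPM in buccal and 16.3 ± 1.43 CPM in palatal libraries (SD, n = 5 per side), 1.59 times as much on the buccal side. Col12a1 (ENSMUSG00000032332), a FACIT known from dense connective tissue and tendon, was at 10.3, 10.0, 14.3, 6.56 and 9.43 CPM in the buccal and 2.95, 2.78, 3.16, 3.15 and 3.64 CPM in the palatal libraries. Buccal levels were 3.24 times as high and also more spread, with no overlap. The log2 fold change was -1.69 ± 0.17 (SE; edgeR adjusted p = 1.99e-06).

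Col16a1 (ENSMUSG00000040690), a minor fibril-associated collagen of skin, gave 17.2, 11.7, 11.3, 14.3 and 14.1 CPM in buccal and 11.4, 10.1, 12.3, 9.24 and 9.82 CPM in palatal libraries. The sides overlapped and the difference was small (log2 fold change -0.37 ± 0.12, SE; edgeR adjusted p = 0.0218). It was not past the threshold without buccal library 1, palatal library 4 or palatal library 5 (edgeR adjusted p = 0.0593, 0.054 and 0.054). Col14a1, a relative of Col12a1, ranged from 0.160 to 0.354 CPM in buccal and 0.518 to 0.994 CPM in palatal libraries (edgeR log2 fold change 1.44 ± 0.29, SE, adjusted p = 0.00109) and was tested only through its palatal counts. Col20a1 did not pass (edgeR log2 fold change -0.46 ± 0.24, SE, adjusted p = 0.145). The other FACIT genes Col9a1, Col9a2, Col19a1 and Col22a1 had at most 9 counts on either side. Col9a3 had 30 counts over the buccal and 86 over the palatal libraries.

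**Figure D3:**
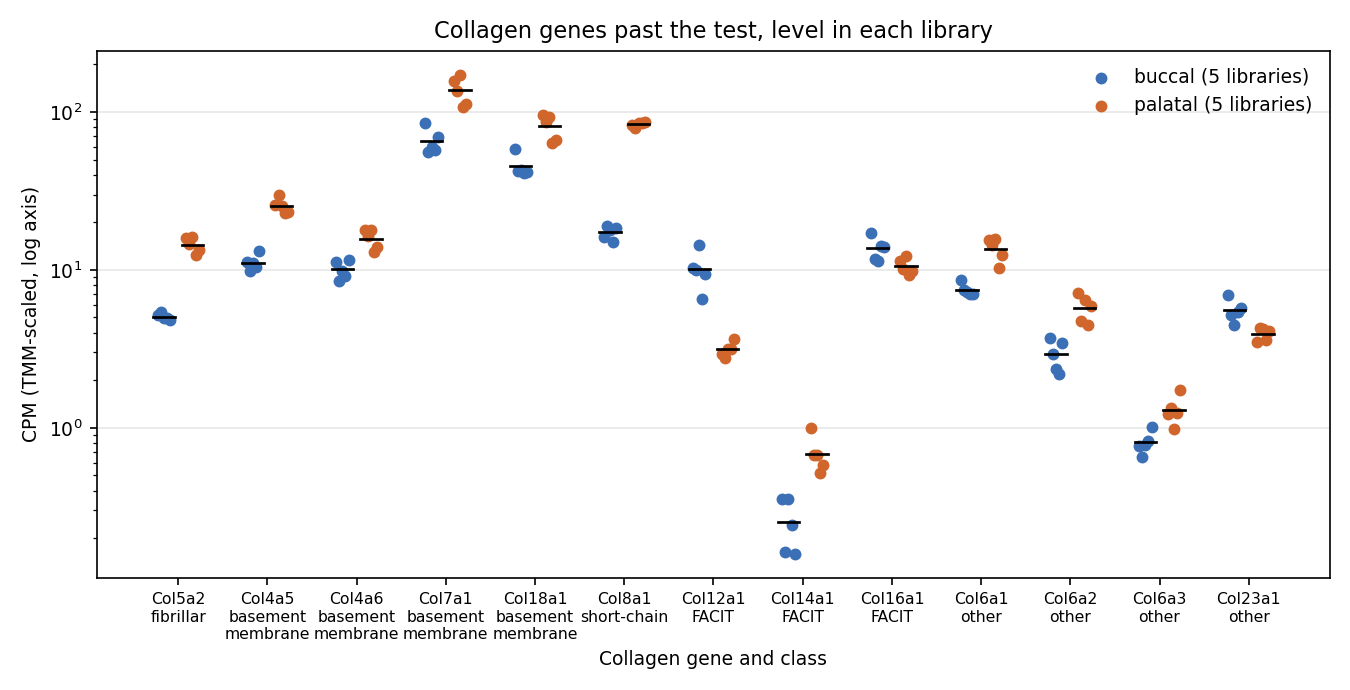
Level in CPM (log axis) of the 13 collagen genes past the test, by gene and class on the horizontal axis, with 1 point per library and a line at the mean of each side (blue buccal, orange palatal). Sides overlap for Col16a1 and Col6a3, and for the other 11 genes they do not.

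Altogether 22 collagen genes were too low to test, with 1 to 74 counts over the buccal and 0 to 86 over the palatal libraries. Of these, 19 had fewer than 20 counts on each side. When the filter on low counts was dropped, Col9a3 passed as higher and Col6a4 as lower in palatal samples (edgeR log2 fold changes 1.61 and -2.43, adjusted p = 2.75e-04 and 0.0183), and Col15a1 did not pass (-1.33, adjusted p = 0.0618). For Col9a3, 6.07% of exon bases overlap the opposite-strand gene Tcfl5 in the GENCODE M21 annotation, and the strand setting of the counting is not given in the sources used here. Among the 13 genes past the test the largest overlap with another gene on either strand was 0.35% of exon bases (Col7a1, with Mir711 on the same strand).

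**Figure D4:**
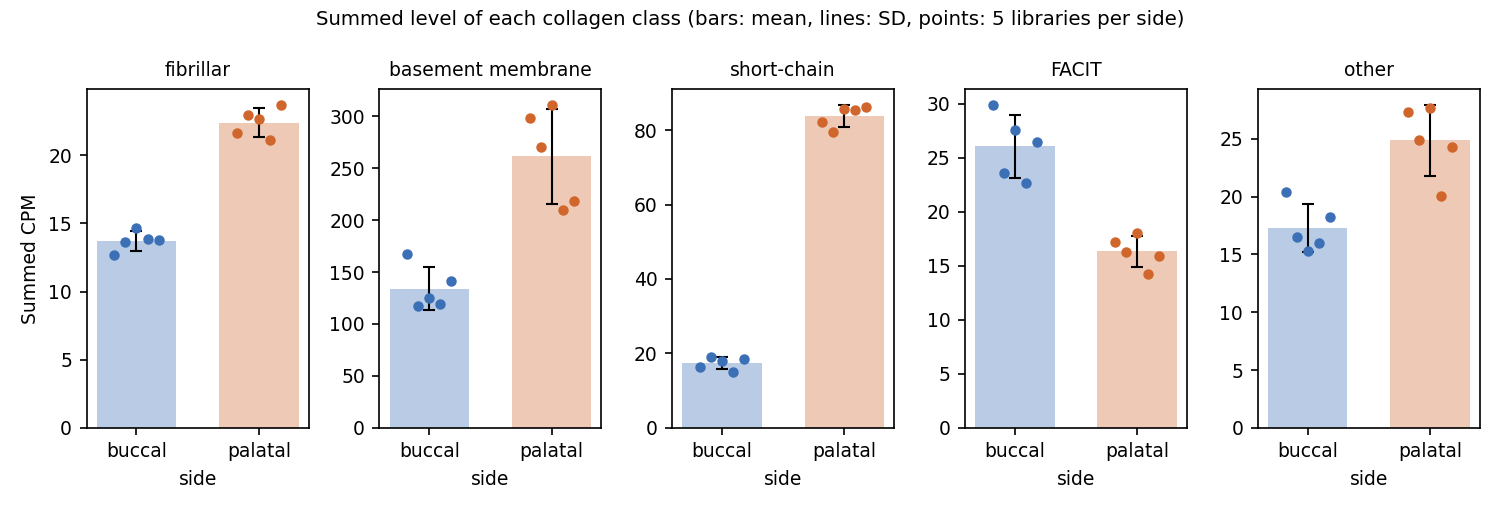
Summed CPM (vertical axes, each starting at 0) of the 5 collagen classes in buccal and palatal libraries, with bars for the mean, lines for the SD and 1 point per library. The sides do not overlap in the fibrillar, basement membrane, short-chain and FACIT classes, the last being the one class that is lower in palatal libraries.

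Levels of the tested collagens, without Col17a1, were compared per kilobase of coding length. In buccal libraries Col18a1 led with 8.49 CPM per kilobase (7.74 to 10.9), then Col8a1 with 7.77 (6.76 to 8.49) and Col7a1 with 7.42 (6.27 to 9.71), and these ranges overlap. Col23a1 followed with 3.48 and Col16a1 with 2.89 CPM per kilobase. In palatal libraries Col8a1 led with 37.5 CPM per kilobase (35.5 to 38.6), apart from Col7a1 with 15.5 (12.2 to 19.5) and Col18a1 with 15.2 (12.0 to 18), which overlap each other. Col4a5 with 5.01 and Col6a1 with 4.44 CPM per kilobase came next. The place of Col8a1 depended on the length used. Per kilobase of all exons it had 2.22 CPM (1.93 to 2.42) in buccal libraries, below Col18a1 with 6.44 (5.87 to 8.28) and Col7a1 with 6.37 (5.39 to 8.33) without overlap, and Col23a1 with 0.969 was no longer among the first 5. On the same scale Col8a1 had 10.7 CPM (10.1 to 11) in palatal libraries, under Col7a1 with 13.3 (10.5 to 16.7) and Col18a1 with 11.6 (9.11 to 13.7), with overlapping ranges.

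Ratios between partner chains within a library do not depend on how libraries are scaled, and 6 of 10 chain pairs had both chains tested. The Col5a1 to Col5a2 log2 count ratio was -0.42, -1.15, -0.43, -0.34 and -0.14 in the buccal and -2.25, -1.95, -2.41, -2.22 and -2.12 in the palatal libraries. Col5a2 thus had 1.41 counts per Col5a1 count in buccal and 4.57 in palatal libraries, a change in log2 ratio of -1.69 (exact two-sided permutation p = 0.00794, adjusted over 6 pairs 0.0238). The Col4a5 to Col4a6 log2 ratio was 0.00, 0.21, 0.15, 0.18 and 0.19 in the buccal and 0.54, 0.86, 0.51, 0.82 and 0.73 in the palatal libraries. This is a difference of 0.55 (exact permutation p = 0.00794, adjusted 0.0238), from 1.11 to 1.62 Col4a5 counts per Col4a6 count. In both pairs the sides did not overlap, and 0.00794 is the smallest p that 5 against 5 libraries can give.

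The other 4 pairs did not pass. Col1a1 had 1.94 counts per Col1a2 count in buccal and 1.3 in palatal libraries (log2 difference -0.59, exact permutation p = 0.0476, adjusted 0.0952). Col6a1 had 2.60 and 2.39 counts per Col6a2 count (log2 difference -0.12, exact permutation p = 0.437, adjusted 0.59) and 9.17 and 10.4 per Col6a3 count (0.18, exact permutation p = 0.492, adjusted 0.59). Col4a1 had 1.52 and 1.51 counts per Col4a2 count (-0.01, exact permutation p = 0.976), and buccal library 5, where both were high, had a log2 ratio of 0.59, within the 0.07 to 1.58 of its side.

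**Figure D5:**
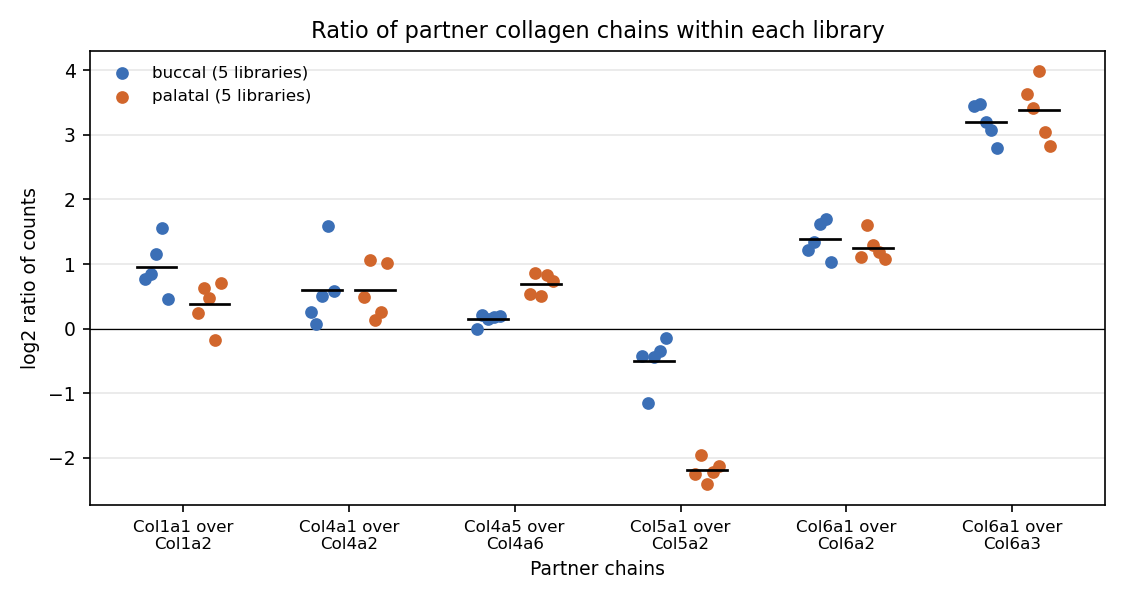
Log2 ratio of raw counts between partner chains (vertical axis) for the 6 chain pairs (horizontal axis), with 1 point per library and a line at each side's mean. Sides separate for Col4a5 over Col4a6, where palatal values are higher, and for Col5a1 over Col5a2, where palatal values are lower.

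Of 34 listed genes that make and trim collagen, 24 were tested, 7 were higher and 5 lower, with a median log2 fold change of -0.01. These are 29.2% and 20.8% of those tested, against 18.7% and 20.3% of all tested genes, so the lower share is at the background. Bmp1 and Tll1, proteases that cut procollagen ends, rose from 30.5 ± 3.51 to 50.7 ± 4.40 CPM and from 0.336 ± 0.0413 to 1.63 ± 0.217 CPM (SD, n = 5 per side). Their log2 fold changes were 0.73 ± 0.09 and 2.25 ± 0.19 (SE; edgeR adjusted p = 8.89e-06 and 2.75e-07). Tll1 had 9 to 15 counts in the buccal libraries and was tested only through its palatal counts. P4ha2, a prolyl hydroxylase subunit that stabilises the helix, rose by 0.55 ± 0.09 log2 units (SE; edgeR adjusted p = 1.97e-04). Creb3l1, a transcription factor known to promote collagen secretion, fell from 47.4 ± 6.23 to 22.8 ± 1.78 CPM (SD, n = 5 per side; edgeR log2 fold change -1.05 ± 0.09, SE, adjusted p = 3.67e-07). Loxl2, a cross-linking lysyl oxidase, averaged 1.55 and 0.306 CPM (-2.28 ± 0.31; edgeR adjusted p = 3.42e-05), and Ppib, a prolyl isomerase of the endoplasmic reticulum, 186 and 148 CPM (-0.32 ± 0.06; edgeR adjusted p = 6.62e-04). Loxl2 had 3 to 20 counts in the palatal libraries and was tested only through its buccal counts.

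Of 10 collagen receptor genes 7 were tested, 2 were higher and 1 lower, or 42.9% called, near the 38.9% of all tested genes. Itga2, the collagen-binding integrin chain of keratinocytes, was at 14.8, 17.4, 14.2, 13.2 and 14.1 CPM in the buccal and 27.9, 25.0, 27.3, 25.2 and 25.4 CPM in the palatal libraries, without overlap (log2 fold change 0.83 ± 0.08, SE; edgeR adjusted p = 1.22e-06). Mrc2, an endocytic collagen receptor, averaged 5.42 ± 0.838 and 10.3 ± 1.19 CPM (SD, n = 5 per side; edgeR log2 fold change 0.92 ± 0.12, SE, adjusted p = 1.92e-05). Itga1, the chain of another collagen-binding integrin, averaged 5.17 ± 0.512 and 3.20 ± 0.492 CPM (SD, n = 5 per side; edgeR log2 fold change -0.70 ± 0.12, SE, adjusted p = 3.85e-04). The abundant receptor kinase gene Ddr1 did not pass, at 239.9 and 236 CPM (edgeR adjusted p = 0.90).

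Of the 19 listed non-collagen partners of the basement membrane 15 were tested, 7 were higher and 4 lower, with a median log2 fold change of 0.32. These are 46.7% and 26.7% of those tested, against 18.7% and 20.3% of all tested genes. Fras1, a protein that anchors epithelial basement membranes, had 6.53, 7.29, 7.12, 5.53 and 6.84 CPM in the buccal and 48.2, 48.2, 58.1, 47.7 and 42.9 CPM in the palatal libraries. The sides lay far apart (log2 fold change 2.88 ± 0.10, SE; edgeR adjusted p = 2.57e-11). Npnt, a basement membrane ligand of an integrin, and Sparc, a collagen-binding protein, rose by 1.06 ± 0.12 and 0.82 ± 0.08 log2 units (SE; edgeR adjusted p = 8.02e-06 and 9.48e-07). Among laminin chains Lamb1 rose by 0.95 ± 0.14 and Lama4 by 3.10 ± 0.34 from a mean of 0.201 to 1.83 CPM (edgeR adjusted p = 1.05e-04 and 4.93e-06). Lama4 had 2 to 18 counts in the buccal libraries and was tested only through its palatal counts. The same held for Lama2, another of the 7 higher genes, with 5 to 12 counts in the buccal libraries. Lama1 fell by 1.69 ± 0.21 log2 units from 1.64 to 0.506 CPM (SE; edgeR adjusted p = 1.43e-05). The collagen making, receptor and partner lists describe the same libraries as the collagens and are no separate evidence about them.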

How the data were processed

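Polyadenylated RNA of 5 buccal and 5 palatal gingival epithelium samples was sequenced single-end on a NovaSeq from stranded KAPA libraries, per the labels' protocols. TopHat2 2.1.1, HTSeq 2.01, cutadapt 2.10, DESeq2 1.36.0 and the build GRCm39 are named, without roles, per the submitters' processing notes. The deposited table holds, per the file headers, the authors' raw count per gene and library. Its normalized columns, a signal made by the authors, are counts over a per-library size factor and were not used in tests. Of 55414 rows 6250 were blank in every library, which left 49164 genes.

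Samples were grouped by tissue label. Low genes were removed with filterByExpr of edgeR at its minimum count of 10 (14062 genes), scaled by TMM and compared by edgeR's two-sided quasi-likelihood F-test with robust dispersion (edgeR 4.0.16, R 4.3.3), with Benjamini-Hochberg adjustment over all tested genes at 0.05. Standard errors were obtained from the log2 fold change and the root of F. Chain ratios are log2 of counts plus 0.5 and were compared by exact two-sided permutation over 252 assignments. Coding and exon lengths come from GENCODE M21 and promoter windows from RefSeq, both of GRCm38, an earlier build than that of the counts.

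Every collagen gene is named, with all library values where it passed the test and averaged 1 CPM or more on one side. From each companion list (collagen making and trimming, receptors, basement membrane partners) up to 6 members with the smallest p and at least 1 CPM are named, and from each marker list of a cell type up to 3 with the highest mean. The members, lists and tests were chosen with earlier results of these data known. Dcn, Fbln1 and Vim are the fibroblast genes so named. Ddr1, Lama2, Trp63, Cdh1, Krt15, Dsg3, Pdgfra, Dpt, Emcn, Egfl7, Rgs5 and Des, and the markers listed by name alone, were added outside this rule after their values were seen. In edgeR's test Acta2 was lower in palatal samples among markers of pericytes and smooth muscle (7 listed, 4 tested, 25% lower). Vwf was lower among endothelial markers (8 listed, 2 tested, 50% lower). In Schwann cell markers (6 listed, 3 tested) and in cartilage, bone and tooth markers (11 listed, 1 tested) none passed. Among Merkel cell markers (3 listed, 2 tested, 100% higher) Atoh1 and Isl1 were higher in palatal samples. Of all tested genes 20.3% were lower and 18.7% higher. Atoh1 and Isl1 had 19 and 12 counts over the buccal libraries and were tested only through their palatal counts. Alternatives were other library scalings, filters and tests (DESeq2 1.42.0, limma-voom with limma 3.58.1), a false discovery rate of 0.01, a 2-fold minimum, the replicate number as a block and leaving out each library.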

Additional observations from a re-analysis of the deposited data

Results flagged for a closer look

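Each side's 5 values were checked for the 21 tested collagen genes, the class sums, the 6 chain ratios, and the untested collagen genes with at least 10 counts in some library of that side. In 7 of 70 such groups 1 library lay apart from the other 4 by more than Dixon's 95% critical value, and chance flags about 1 in 20 groups. Buccal library 1 had the highest Col6a1, 8.59 CPM against 7.08 to 7.45 CPM in the other buccal libraries. It also had the highest Col18a1, 58.1 CPM against 41.2 to 42.9 CPM. The Col4a5 to Col4a6 log2 ratio in this library, -0.0041, was the lowest of its side against 0.15 to 0.21. In buccal library 5 Col4a1 reached 2.37 CPM against 0.386 to 0.723 CPM. Col15a1 reached 1.09 CPM there against 0.173 to 0.387 CPM, and Col13a1 0.373 CPM against 0 to 0.0322 CPM. The Col5a1 to Col5a2 log2 ratio of buccal library 2 was -1.15 against -0.43 to -0.14 in the other buccal libraries.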

How the results depend on the processing

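Of the 13 collagen genes past the test, 11 kept their direction and their side of the threshold in each of the 19 alternatives that tested them (scaling, filter, test, block, each library left out, stricter threshold). The exceptions were Col16a1, lost without buccal library 1, palatal library 4 or palatal library 5 and at a false discovery rate of 0.01, and Col6a3, lost at 0.01. Col14a1 could not be tested with the filter of 1 CPM in 5 libraries. No direction reversed. Apart from the 2-fold minimum, which left 5 higher and 1 lower collagen genes, the alternatives gave 9 to 11 higher and 2 to 4 lower. Leaving out 1 library gave 10 to 11 higher and 2 to 3 lower. Lower collagen receptors numbered 2 in place of 1 with no filter on low counts and with the replicate block, and 1 to 2 with 1 library left out. The added gene was Ddr2 in the block fit and without buccal library 1 or palatal library 4. Lower basement membrane partners numbered 2 at a false discovery rate of 0.01, where fewer genes can pass, and 3 to 4 with 1 library left out. The Col1a1 to Col1a2 log2 difference ranged from -0.71 to -0.43 with 1 library left out and passed without buccal library 5 (exact permutation, adjusted p = 0.0317); the cause was not tested.

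Replicate numbers are shared by the sides, but same-numbered libraries deviated together only weakly (correlation -0.02 to 0.33), and 5 of 10 libraries correlated best with their own number. With the replicate block the edgeR fit called 2643 genes higher and 2875 lower, and 10 collagens higher and 3 lower. Paired by number, the Col4a5 to Col4a6 and Col5a1 to Col5a2 differences of 0.55 and -1.69 had an adjusted exact p of 0.1875 each, since 5 pairs cannot go below 0.0625 before adjustment. The median log2 fold change of all genes was 0.01 with TMM and -0.04 with library totals alone. Depth limits the 22 untested collagens and those near 1 CPM.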
